A study of Homo sapiens with 12 samples.

Results

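GM-453 was set directly against paclitaxel in MDA-MB-231 cells, a human triple-negative breast cancer (TNBC) line of mesenchymal character. The compound is written GM-453 here, as in the sample labels. The comparison used 3 arrays after 5 µg/mL of GM-453 and 2 arrays after 1 µg/mL of paclitaxel, each compound dissolved in DMSO, with RNA taken at 36 h. These are 5 of the 12 whole-transcriptome arrays of the series. The other 7 are 4 untreated controls and 3 arrays of cells given GNE-140, a lactate dehydrogenase inhibitor, at 50 µM. All 53617 features of the arrays were members, of which 23866 carried 1 gene symbol, and 22392 genes were read on a feature of their own. The difference reported throughout is the mean log2 signal of the GM-453 arrays minus that of the paclitaxel arrays. No control array entered that estimate. The doses differ, so each difference is one between the compounds at these doses. They were chosen by the study to stop proliferation without toxicity. All cells came from 1 line, and the labels do not say that the replicates were separate cultures, so p-values measure the spread between these arrays, which may be technical.

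Paclitaxel is a taxane that binds the tubulin subunits of microtubules and stabilizes them, so that the mitotic spindle cannot complete chromosome segregation and cells stall in mitosis. GM-453 is a cytostatic compound whose synthesis the authors had described in earlier work. Cells answer a change of shape or of the actin cytoskeleton through the transcription factors SRF and YAP with its partner TEAD, and they make mitotic transcripts mainly in the last part of the cell cycle.

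The mesenchymal markers of the line were bright on the 5 arrays, with a median signal of 7.92 over 11 of 12 listed genes, and vimentin (VIM) averaged 8.0 and 7.80 under GM-453 and paclitaxel. Estrogen and progesterone receptors (ESR1 and PGR) averaged 2.31 and 1.69 under GM-453, below the all-gene median signal of 3.22, while the epithelial genes EPCAM and KRT19 averaged 5.64 and 5.86. The hormone receptor and luminal markers together, 12 of 14 listed, had a median of 4.395, above that of all genes. Markers of blood and immune cells, 11 of 14 listed, had a median of 2.13, and those of endothelium and fibroblasts, 9 of 12 listed, had a median of 2.42. The array medians lay between 2.67 and 2.70 in these 5 arrays. The replicates were not equally tight. The median SD of a gene was 0.171 over the GM-453 arrays and 0.101 over the paclitaxel arrays, against 0.255 in the controls and 0.116 under GNE-140. An SD from fewer arrays tends to come out lower, so these values cannot rank groups of different size. By pairs of arrays GNE-140 was tighter than paclitaxel. The median absolute difference of a gene was 0.130 to 0.134 between GNE-140 arrays and 0.1425 between the paclitaxel arrays. Between GNE-140 arrays 9 to 27 genes differed by more than 2-fold. Between single arrays, 257 to 364 genes differed by more than 2-fold when a GM-453 array was set against a paclitaxel array. That range overlapped the 223 to 324 genes between GM-453 arrays and lay above the 96 genes between the 2 paclitaxel arrays.

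**Figure D1:**
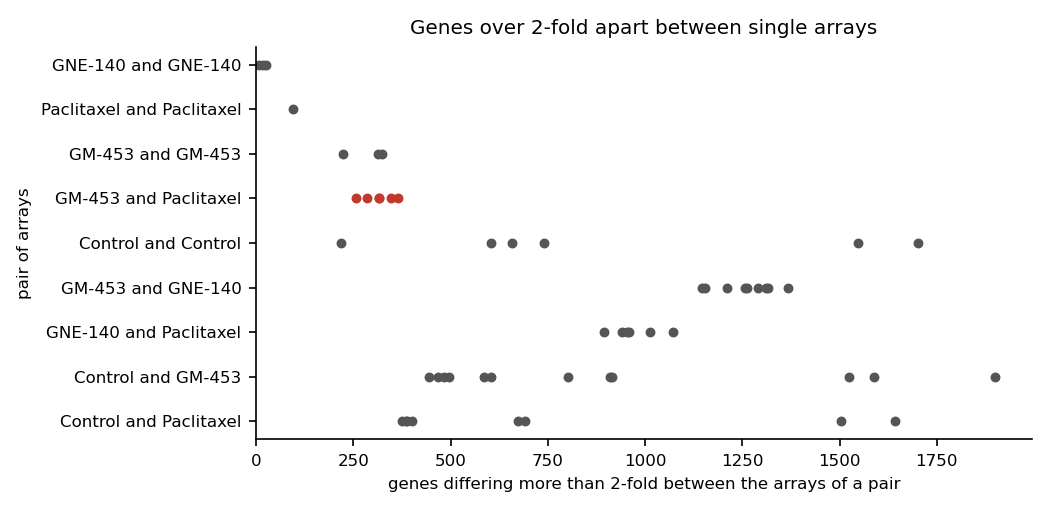
Genes more than 2-fold apart between the 2 arrays of each pair, 1 point per pair, grouped by the treatments of the pair. The GM-453 and paclitaxel pairs (red, 257 to 364 genes) lie close to the GM-453 pairs (223 to 324) and below the pairs of either drug with GNE-140 (895 to 1368).

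Most genes differed little between the 2 drugs at 36 h. The median absolute difference of a gene was 0.152 on the log2 scale, its 95th percentile was 0.518, and the median difference was -0.01. With limma on the 5 arrays, 0 of 23866 features with 1 symbol (0%) passed an adjusted p under 0.05 with a fold change above 2, and the lowest adjusted p was 0.270. The methods' t-test also gave 0 after Benjamini-Hochberg adjustment. At an unadjusted p under 0.05 and a fold above 2, 79 features stood out, 35 higher and 44 lower under GM-453. Of the lower ones, 14 had a mean signal below the median of all features, against 2 of the higher ones. Over all genes, whatever the fold, 3.84% were higher and 4.57% lower under GM-453 at an unadjusted p under 0.05, and in 13.9% and 16.3% every GM-453 array lay above or below both paclitaxel arrays. These are the shares against which gene groups are read below. They were not matched for signal. The median signal was 7.43 for the mitotic spindle list, 6.49 for the YAP and TEAD list and 5.72 for the SRF list, against 3.22 over all genes. An exact permutation test of 3 arrays against 2 cannot give a two-sided p below 0.2.

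Gene-level calls appeared when other arrays helped to estimate the spread. With the 3 GNE-140 arrays in the fit, for their spread only, 27 features passed the threshold, 18 higher and 9 lower under GM-453. Over all genes and whatever the fold, that fit put 0.0938% higher and 0.0447% lower at an adjusted p under 0.05. Their differences are the same as in the 5-array fit, and the GNE-140 replicates that joined it vary less than the GM-453 ones. The 27 did not hold when single arrays were left out: 12 passed without GM-453 replicate 3, and 0 without any other 1 of the 8 arrays. With all 12 arrays in the fit 8 features passed, CD274, HAS2, SAMD4A, HBEGF and SNORA75 higher and ID1, SESN3 and OR2G2 lower. Below, "8-array adjusted p" is limma's adjusted p from the fit with GNE-140, and each difference carries limma's standard error (SE) from the 5 arrays (n = 3 and 2). No gene named below passed in the 5-array fit, and with all 12 arrays only the 8 just listed did.

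**Figure D2:**
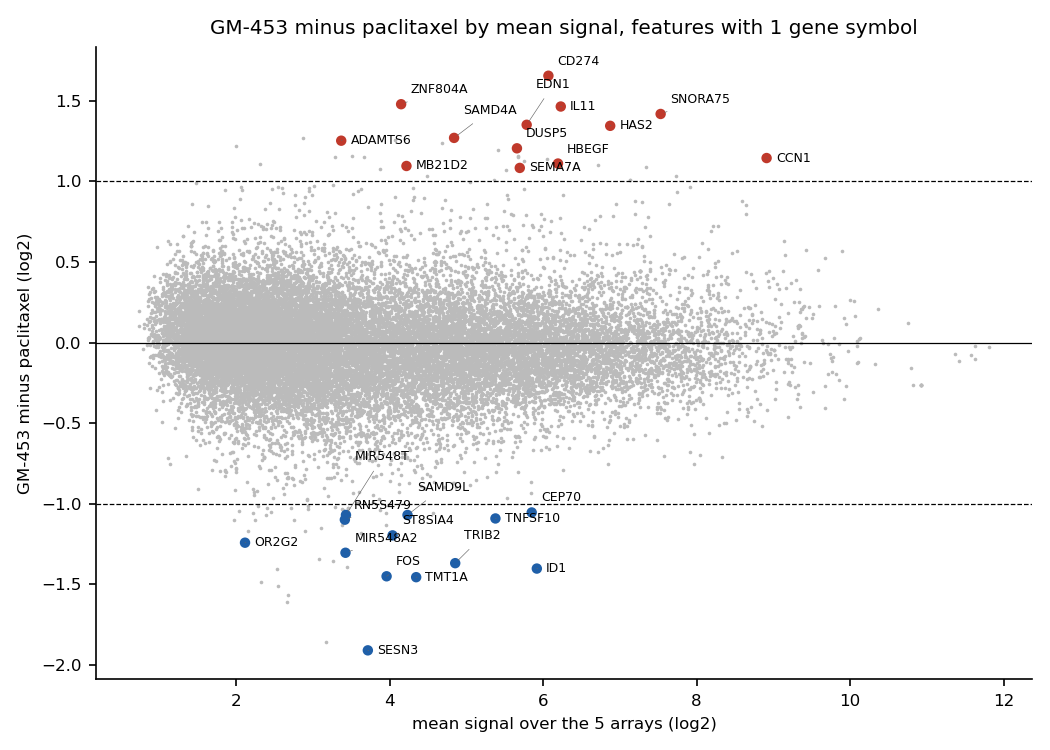
Each grey point is a feature with 1 gene symbol, with its mean signal over the 5 arrays on the x axis and GM-453 minus paclitaxel on the y axis, both log2, and dashed lines at 2-fold. The 26 named genes are in red (higher under GM-453) or blue (lower). CD274 at 1.65 and SESN3 at -1.91 are the outermost of them, and most features lie within 0.5 of 0.

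Several of the genes furthest above paclitaxel encode secreted or surface signals, and others encode nuclear or RNA-binding proteins. CD274, which encodes PD-L1, the ligand that restrains T cells through PD-1, read 6.86, 6.79 and 6.54 under GM-453 and 5.07 and 5.09 under paclitaxel. The groups did not overlap, and CD274 was 3.15-fold higher under GM-453 (difference 1.65, SE 0.15, 95% interval 1.28 to 2.03, 8-array adjusted p = 0.0259, limma). The controls lay between 5.17 and 5.66, so the paclitaxel mean was just under them and the GM-453 mean above them. IL11, an interleukin 6 family cytokine, read 6.78, 6.93 and 6.74 under GM-453 and 5.32 and 5.39 under paclitaxel. Its difference of 1.46 (SE 0.14, 8-array adjusted p = 0.0259, limma) is a 2.76-fold one, and both drug groups lay above the controls, which ran from 3.93 to 4.81. EDN1, the precursor of the vasoconstrictor endothelin 1, read 6.31, 6.48 and 6.19 under GM-453 and 4.98 and 4.97 under paclitaxel, a difference of 1.35 (SE 0.15). HBEGF, a ligand of the EGF receptor, was nearly the same on every array of a group, with 6.65, 6.66 and 6.60 under GM-453 against 5.53 and 5.53 under paclitaxel. The difference was 1.11 (SE 0.13, 8-array adjusted p = 0.0295, limma), and the 4 controls lay between the 2 groups, at 5.76 to 5.97.

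The other genes of this set have varied roles. HAS2, which makes hyaluronan, read 7.42, 7.51 and 7.31 under GM-453 and 5.96 and 6.18 under paclitaxel, with a difference of 1.34 (SE 0.15). Paclitaxel lay below every control (6.59 to 7.21) and GM-453 above all of them. The metalloprotease ADAMTS6 was low but tight, at 3.85, 3.88 and 3.88 against 2.58 and 2.66, and SEMA7A, a membrane-anchored semaphorin, averaged 6.13 against 5.05. SAMD4A, an RNA-binding regulator of translation, read 5.32, 5.50 and 5.23 against 4.03 and 4.13. The zinc finger gene ZNF804A was higher by 1.48 (SE 0.17), and MB21D2 by 1.09 (SE 0.13). The small nucleolar RNA SNORA75 read 7.94, 7.99 and 8.37 under GM-453 and 6.71 and 6.66 under paclitaxel, and the 4 controls were at 6.64 to 6.96. Among the 13 named genes higher under GM-453, the mean under GM-453 lay above all 4 controls in 12 and within their range in 1, DUSP5. For CCN1, described below, the margin was small, 9.37 against a highest control of 9.35. The paclitaxel mean lay above the controls in 2, within in 6 and below in 5. Among the 13 named genes lower under GM-453, the GM-453 mean lay below the controls in 8, within in 3 and above in 2. The paclitaxel mean lay above in 7, within in 4 and below in 2. All 26 were named for large differences between the drugs, which favours such positions, so these counts add no separate evidence. Over all genes the GM-453 mean lay above the controls in 15.5% and below in 17.7%, and the paclitaxel mean in 15.8% and 17.3%. Both positions rest on the same controls, the most variable group. The labels give the controls no treatment and do not say whether they received DMSO, so a position against them cannot be told apart from any effect of the solvent.

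**Figure D3:**
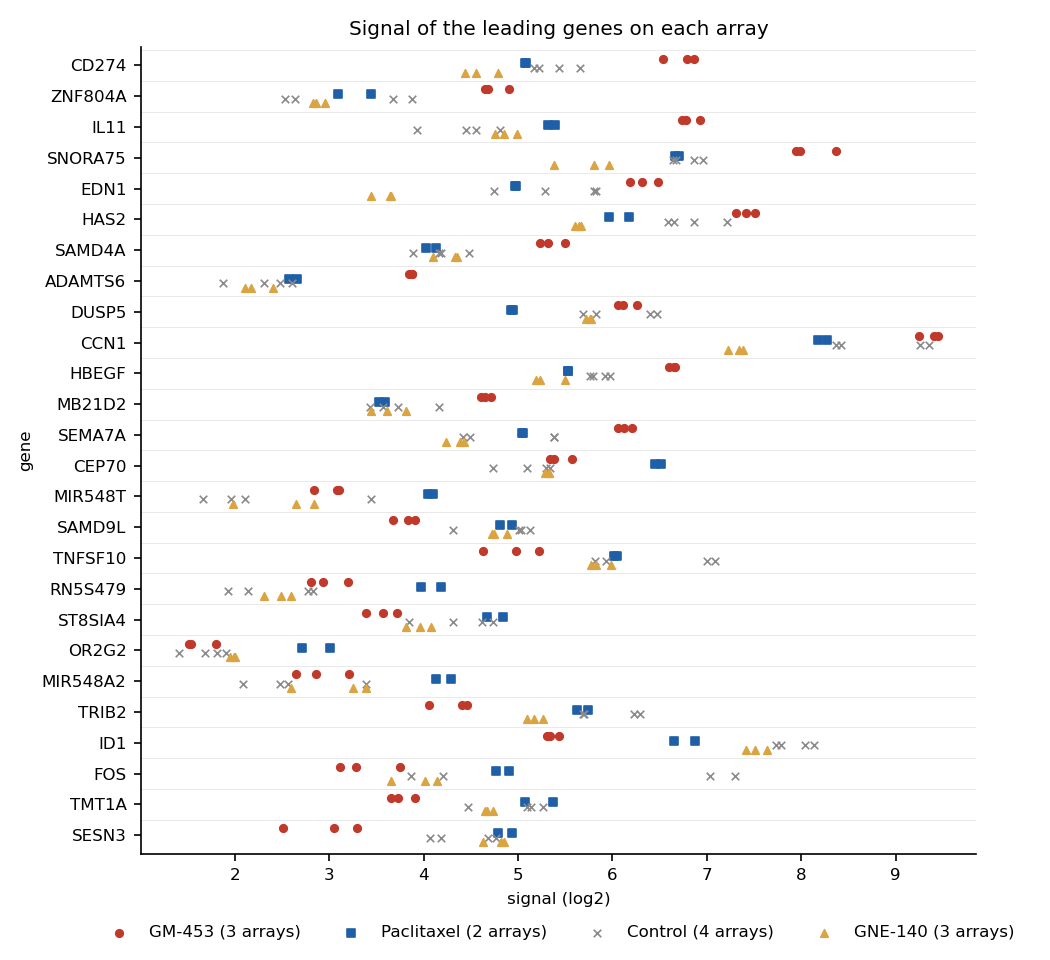
Signal (log2) of the 26 named genes on each of the 12 arrays, sorted by GM-453 minus paclitaxel. Red circles are GM-453, blue squares paclitaxel, grey crosses controls and yellow triangles GNE-140. In every row the red and blue points are apart, while the controls lie beside one drug in some rows (SNORA75, SESN3) and between the drugs in others (HBEGF).

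Genes of the actin cytoskeleton were the group most clearly above paclitaxel. Of 34 SRF and actin genes measured, 23 (67.6%) had every GM-453 array above both paclitaxel arrays and 0 lay the other way, against 13.9% and 16.3% of all genes. Their median difference was 0.33, against -0.01 over all genes, and 13 were higher and 0 lower at an unadjusted p under 0.05. None passed the adjusted threshold in either fit, and members of a list share their arrays, so these counts are not independent. TAGLN, which encodes the actin-binding protein transgelin, read 3.84, 3.63 and 3.79 under GM-453 and 2.76 and 2.45 under paclitaxel, a difference of 1.15 (SE 0.16). The myosin light chain MYL9 averaged 0.72 higher (SE 0.16) and the heavy chain MYH9 0.63 higher (SE 0.14). FHL2, a LIM-domain cofactor, caldesmon (CALD1) and the actin cross-linker LIMA1 were higher by 0.77, 0.77 and 0.73. SRF itself read 7.55, 7.37 and 7.48 under GM-453 against 6.74 and 6.97, and actinin 1 (ACTN1), which bundles actin filaments, read 5.78, 5.65 and 5.88 against 5.09 and 5.20. The GM-453 mean lay above all controls in 21 of the 34 genes and the paclitaxel mean in 3, against 15.5% and 15.8% of all genes.

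SRF binds the CArG box, a run of A and T letters between CC and GG. The 250 bases before the start of SRF are shown because the gene is both the factor and a member of the list, with its CArG boxes in capitals (RefSeq, GRCh38.p14, plus strand, chr6:43171019-43171268).
SRF: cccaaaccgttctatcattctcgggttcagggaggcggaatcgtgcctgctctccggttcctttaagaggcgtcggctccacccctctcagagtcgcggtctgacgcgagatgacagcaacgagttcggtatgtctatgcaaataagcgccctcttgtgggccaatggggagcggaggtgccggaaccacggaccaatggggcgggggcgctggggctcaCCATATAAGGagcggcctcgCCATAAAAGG
The 2 boxes begin 30 and 10 bases before the start. In the same window, 11 of 57 RefSeq promoters of 31 listed genes (19.3%) held a CArG box on either strand, against 1.16% of 35116 promoters of all genes. Some genes have several promoters, and by gene 8 of the 31 held a box. The list was chosen to hold SRF targets, so an excess of its motif does not depend on these arrays. The same limit holds for the other lists searched below. The match of letters is a description and shows no binding.

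Targets of YAP and TEAD lay the same way. Of 22 measured, 13 (59.1%) had every GM-453 array above both paclitaxel arrays and 1 had every array below, with a median difference of 0.25. At an unadjusted p under 0.05, 8 were higher and 0 lower, and 3 passed in the 8-array fit, CCN1, CCN2 and RBMS3. None of these 3 passed in the 5-array fit or with all 12 arrays. CCN1 and CCN2 encode secreted matricellular proteins. CCN1 read 9.41, 9.25 and 9.45 under GM-453 and 8.18 and 8.27 under paclitaxel (difference 1.14, SE 0.14, 8-array adjusted p = 0.0295, limma). CCN2 read 7.61, 7.48 and 7.52 under GM-453 and 6.52 and 6.53 under paclitaxel (difference 1.01, SE 0.13). The CCN2 controls themselves ran from 7.26 to 8.35, so that GM-453 lay within them and paclitaxel below. RBMS3, an RNA-binding protein gene, tissue factor (F3) and the growth arrest gene GADD45B were higher by 1.16, 0.88 and 0.66, and TEAD4, a TEAD factor, by 0.63. ANKRD1, a nuclear ankyrin-repeat protein gene, was higher by 0.54 (SE 0.15).
The CCN2 promoter is shown for its TEAD motif, GGAATG, and its TATA box, TATAAA, both in capitals (RefSeq, GRCh38.p14, minus strand, chr6:131951373-131951622).
CCN2: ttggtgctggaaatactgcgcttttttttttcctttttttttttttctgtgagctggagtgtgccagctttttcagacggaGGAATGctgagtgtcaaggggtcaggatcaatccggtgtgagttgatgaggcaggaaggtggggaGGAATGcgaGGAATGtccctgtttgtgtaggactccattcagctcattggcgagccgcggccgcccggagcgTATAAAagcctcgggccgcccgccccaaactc
The motif begins 169, 104 and 95 bases before the start and the TATA box 32 bases before it. GGAATG, searched on both strands, was found in 7 of 22 promoters of 17 listed genes (31.8%) and in 11.9% of all promoters. By gene, 7 of the 17 held it. The AP-1 motif, TGANTCA, searched likewise, was found in 0 of 20 promoters of 17 genes of the AP-1 and early list described below, against 6.57% of all promoters.

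**Figure D4:**
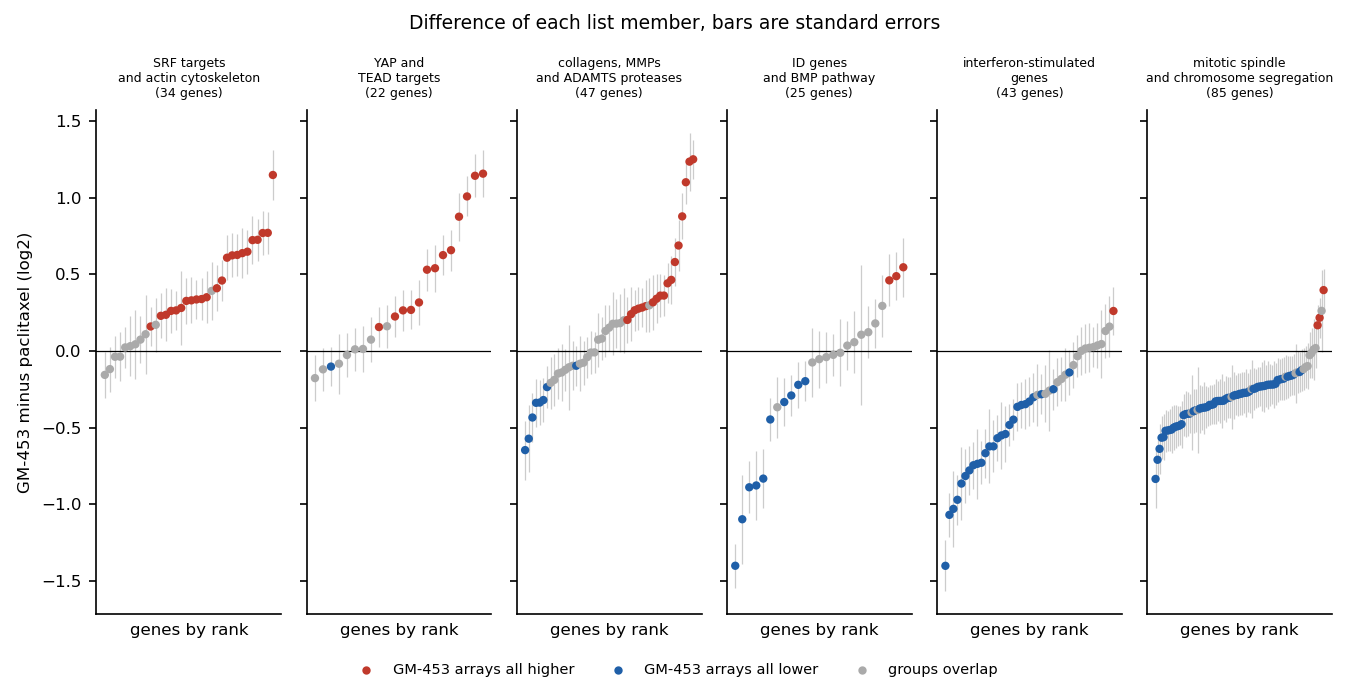
GM-453 minus paclitaxel (log2) for every measured member of 6 gene lists, in rank order, with limma standard errors as bars. Red marks genes whose GM-453 arrays all lie above both paclitaxel arrays, blue those all below and grey those that overlap. The SRF list holds 23 red and 0 blue points, and the mitotic list 3 red and 67 blue.

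Matrix genes were spread more widely. Of 47 collagen, MMP, ADAMTS and related genes, 18 (38.3%) lay wholly above paclitaxel and 8 (17.0%) wholly below, and the median difference was 0.15. Without GM-453 replicate 3 that median was 0.09, the lowest with 1 array left out. COL12A1, a collagen that decorates fibrils, read 7.13, 7.04 and 7.31 under GM-453 and 6.03 and 6.08 under paclitaxel, a difference of 1.10 (SE 0.15). The protease ADAMTS1 was higher by 1.24 (SE 0.19) and the interstitial collagenase MMP1 by 0.88 (SE 0.15). Fibronectin (FN1) and thrombospondin 1 (THBS1) were higher by 0.36 and 0.44, while the lysyl oxidase relative LOXL4 was lower by 0.65 (SE 0.19). Laminin β3 (LAMB3) averaged 0.80 higher (SE 0.16), but the 23 integrin and laminin genes as a whole had a median difference of 0.00.

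The ID and BMP list was mixed, and the gene that differed most in it was ID1. It encodes an inhibitor of basic helix-loop-helix factors and is a direct BMP target. ID1 read 5.31, 5.43 and 5.34 under GM-453 and 6.87 and 6.65 under paclitaxel. The difference was -1.40 (SE 0.14, 8-array adjusted p = 0.0259, limma), a 2.64-fold lower signal under GM-453, and both drug groups lay below the controls (7.73 to 8.14). ID3 read 3.35, 3.19 and 2.42 against 4.01 and 4.16, also below its controls of 4.90 to 5.54. The Notch effector HES1 was lower by 0.89 (SE 0.17), the inhibitory SMAD6 by 0.88 (SE 0.23) and the pseudoreceptor BAMBI by 0.45 (SE 0.14). In the other direction the extracellular antagonists NOG (noggin) and FST (follistatin) were higher by 0.55 and 0.49. In all, 3 of 25 members were higher and 6 lower at an unadjusted p under 0.05, while 10 (40.0%) lay wholly below paclitaxel and 3 (12%) wholly above. ID1 alone passed in the 8-array fit. The median difference was -0.05, and leaving out any 1 of the 5 arrays gave medians between -0.21 and -0.07, the lowest without paclitaxel replicate 2. Of 24 TGF-β genes 4 were higher and 0 lower at that p, namely IL11, CCN2, TAGLN and the ligand TGFB2 (0.51, SE 0.14), and the list's median was -0.04.

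Immediate early and ERK-linked genes went both ways. DUSP5, a nuclear phosphatase that acts on ERK, read 6.11, 6.06 and 6.26 under GM-453 and 4.93 and 4.95 under paclitaxel (difference 1.20, SE 0.14), within and below its controls of 5.69 to 6.47. The AP-1 subunits split. JUND read 6.06, 5.93 and 5.83 against 4.93 and 4.81, and JUN averaged 0.76 higher (SE 0.13). FOS was lower, at 3.28, 3.12 and 3.75 against 4.77 and 4.90, a difference of -1.45 (SE 0.22, 8-array adjusted p = 0.067, limma). Its controls were far apart, with replicates 1 and 2 at 7.03 and 7.30 and replicates 3 and 4 at 4.21 and 3.87. Among the other genes of these lists, MYC, the uPA receptor PLAUR and the cytokine LIF were higher by 0.56, 0.71 and 0.71, while the ETS factor ETV1 was lower by 0.93 (SE 0.13), with an 8-array adjusted p of 0.0295 (limma), and the feedback inhibitor SPRY1 by 0.72. Of 25 AP-1 and early genes 7 were higher and 3 lower at an unadjusted p under 0.05, and of 25 ERK genes 5 and 3. EGFR was higher by 0.48 (SE 0.15) and its feedback inhibitor ERRFI1 by 0.52 (SE 0.13), while ADAM10 was lower by 0.40 (SE 0.15). The EGFR family list as a whole did not lie higher. Its median difference was -0.07, and 5 of its 15 genes had a positive difference. At an unadjusted p under 0.05, 3 were higher and 1 lower.

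Mitotic transcripts were lower under GM-453 than under paclitaxel, by small amounts in many genes. Of 85 spindle and segregation genes, 67 (78.8%) had every GM-453 array below both paclitaxel arrays, against 16.3% of all genes, and 3 (3.53%) lay wholly above. The median difference was -0.28, with 28 lower and 1 higher at an unadjusted p under 0.05. None passed in the 5-array or the 8-array fit. KIF20A, a kinesin of the central spindle, read 8.12, 8.04 and 8.0 under GM-453 and 8.77 and 8.76 under paclitaxel, a difference of -0.71 (SE 0.13, 8-array adjusted p = 0.079, limma). OIP5, which helps to load the centromeric histone, averaged 0.83 lower (SE 0.19). The mitotic kinase gene PBK, the spindle protein DLGAP5 and the Aurora A cofactor BORA were lower by 0.57, 0.52 and 0.64. Cyclin B2 (CCNB2) read 6.90, 7.00 and 6.88 against 7.40 and 7.43, and the spindle motor KIF11 read 8.52, 8.58 and 8.55 against 9.08 and 8.98. Some core mitotic genes hardly differed, with -0.03 for CDK1 and -0.01 for AURKB, and CDCA5, a cohesin regulator, was higher by 0.40 (SE 0.14). Leaving out any 1 of the 5 arrays gave list medians between -0.32 and -0.26. Both drugs stood above the controls here, the GM-453 mean above all 4 in 73 of the 85 genes and the paclitaxel mean in 78, against 15.5% and 15.8% of all genes. For KIF20A the controls were 8.01, 7.83, 6.78 and 6.76, replicates 1 and 2 above replicates 3 and 4.

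The centrosome list followed, with a median of -0.22 over 29 genes, 17 (58.6%) wholly below paclitaxel and 0 wholly above. CEP70, a centrosomal protein that binds γ-tubulin, was at its control level under GM-453 or slightly above it (5.38, 5.34 and 5.57, controls 4.74 to 5.34) and higher under paclitaxel (6.51 and 6.45). Its difference was -1.05 (SE 0.14, 8-array adjusted p = 0.0295, limma). CEP97, which caps centrioles, was lower by 0.68 (SE 0.15). The GM-453 arrays were least alike on this list. Relative to the midpoint of each gene's 2 group means, its median was 0.01 on GM-453 replicate 2, against -0.17 and -0.27 on replicates 1 and 3. By contrast, 54 genes of DNA replication and S phase had a median of -0.01, and the licensing factor CDT1, degraded in S phase, was higher by 0.74 (SE 0.21) while cyclin A2 (CCNA2) was lower by 0.46. Tubulins, which paclitaxel binds, and microtubule-associated proteins together had a median of -0.05 over 37 genes. Of these, MAP1B was higher by 0.61 (SE 0.15) and TUBB4B lower by 0.47 (SE 0.15), with 1 higher and 3 lower at an unadjusted p under 0.05. The G1 kinase CDK6 was higher by 0.68 (SE 0.13), at 6.52, 6.51 and 6.50 against 5.79 and 5.87.

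Many mitotic promoters carry CCAAT boxes and the CHR element, and the CCNB2 promoter is shown with both in capitals (CCAAT and TTTGAA, searched on both strands, RefSeq, GRCh38.p14, plus strand, chr15:59104896-59105145).
CCNB2: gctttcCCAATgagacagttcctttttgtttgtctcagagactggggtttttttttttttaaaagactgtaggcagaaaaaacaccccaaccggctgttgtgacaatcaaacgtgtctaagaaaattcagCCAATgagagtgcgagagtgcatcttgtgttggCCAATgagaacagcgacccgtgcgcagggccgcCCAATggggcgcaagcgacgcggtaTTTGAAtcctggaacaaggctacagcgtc
The CCAAT boxes begin 244, 120, 87 and 54 bases before the start and the CHR element 29 bases before it. In 82 promoters of 71 listed mitotic genes, CCAAT was found in 68.3% and TTTGAA in 39.0%, against 32.0% and 13.3% of all promoters. By gene, 52 and 29 of the 71 held them.

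Interferon-stimulated genes also lay mostly lower under GM-453. Of 43 measured, 26 (60.5%) lay wholly below paclitaxel and 1 wholly above, with a median difference of -0.33 and 18 lower and 0 higher at an unadjusted p under 0.05. SAMD9L passed in the 8-array fit, 1 of the 43. It is an antiviral restriction gene and read 3.83, 3.68 and 3.91 under GM-453 and 4.81 and 4.94 under paclitaxel (difference -1.07, SE 0.14, 8-array adjusted p = 0.0298, limma). The guanylate-binding protein gene GBP4 read 2.02, 1.74 and 2.15 against 3.36 and 3.39. OAS3, a sensor of double-stranded RNA, was lower by 0.97 (SE 0.16), IFI44 by 0.73 (SE 0.14), HERC5, the ligase for ISG15, by 0.75 (SE 0.15), and IFIT1, which binds viral RNA, by 1.03 (SE 0.25). ISG15 itself differed by 0.03. The median signal of the list was 3.88, against 3.22 over all genes, and with dim features left out its median difference was -0.41. The GM-453 mean lay below all 4 controls in 36 of the 43 genes and the paclitaxel mean in 19, against 17.7% and 17.3% of all genes. The 22 antigen presentation genes had a median of -0.18, 12 (54.5%) wholly below and 1 wholly above paclitaxel. HLA-DMA, a peptide-loading chaperone of class II molecules, was lower by 0.63 (SE 0.14), and the peptide-trimming enzyme ERAP2 by 0.69 (SE 0.18). Leaving out 1 array moved the median of this list to between -0.26 and -0.19. TNFSF10, which encodes the death ligand TRAIL and is itself interferon-inducible, read 5.22, 4.98 and 4.63 against 6.05 and 6.02, a difference of -1.09 (SE 0.20).

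CD274 is known as an interferon-inducible gene too, yet it lay on the other side from this list. So did PDCD1LG2, the gene of the second PD-1 ligand, at 4.97, 5.02 and 5.08 under GM-453 and 4.23 and 4.15 under paclitaxel, and the TIGIT ligand PVR, which was higher by 0.86 (SE 0.14). CD47, the signal that blocks uptake by macrophages, was lower by 0.44 (SE 0.15). In all, 4 of 17 checkpoint ligands were higher and 2 lower at an unadjusted p under 0.05. The promoters of IFIT1 (GRCh38.p14, plus strand, chr10:89392373-89392622) and CD274 (plus strand, chr9:5450292-5450541) are shown together, from RefSeq, because both hold the core of the interferon response element (ISRE), TTTC repeated after any 2 bases, in capitals, while the genes differed in opposite directions.
IFIT1: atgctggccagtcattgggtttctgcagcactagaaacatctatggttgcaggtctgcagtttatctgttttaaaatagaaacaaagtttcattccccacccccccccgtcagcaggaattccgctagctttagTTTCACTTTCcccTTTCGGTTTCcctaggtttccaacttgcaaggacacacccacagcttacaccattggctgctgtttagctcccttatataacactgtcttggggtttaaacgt
CD274: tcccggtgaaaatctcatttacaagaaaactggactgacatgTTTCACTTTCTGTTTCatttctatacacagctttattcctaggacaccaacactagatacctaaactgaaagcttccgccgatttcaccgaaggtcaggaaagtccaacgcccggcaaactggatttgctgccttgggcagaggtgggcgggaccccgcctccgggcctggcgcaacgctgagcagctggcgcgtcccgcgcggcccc
The matches begin 116 and 103 bases before the start of IFIT1. In CD274 they begin 208 and 202 bases before it and overlap. The motif was searched on both strands and was found in 26 of 44 promoters of 34 interferon-stimulated genes (59.1%) and in 3.02% of all promoters. By gene, 23 of the 34 held it.

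Of the remaining genes furthest below paclitaxel, SESN3 had the largest difference of all 22392 genes. SESN3, a sestrin that restrains mTORC1, read 3.05, 3.30 and 2.51 under GM-453 and 4.94 and 4.79 under paclitaxel, a 3.75-fold lower signal (difference -1.91, SE 0.25, 95% interval -2.51 to -1.30, 8-array adjusted p = 0.0295, limma). The controls lay between 4.07 and 4.77, next to paclitaxel. The pseudokinase gene TRIB2 read 4.46, 4.41 and 4.06 against 5.74 and 5.62, and TMT1A, a thiol methyltransferase gene, read 3.73, 3.91 and 3.66 against 5.07 and 5.37. ST8SIA4, which adds polysialic acid to glycoproteins, was lower by 1.20 (SE 0.16). The list of sestrins, FOXO factors and Tribbles was mixed. FOXO3 and TRIB1 were higher by 0.60 and 0.55, and 9 of 21 members lay wholly above paclitaxel and 6 wholly below. NQO1, a quinone reductase under NRF2, was lower by 0.87 (SE 0.16), with 10 of 23 NRF2 and redox genes (43.5%) wholly below and 1 above. Of 12 heat shock proteins 5 (41.7%) lay wholly above paclitaxel and 0 below, with a median of 0.09 and 0 at an unadjusted p under 0.05. Lists of glycolysis (25 genes), cytosolic ribosomal proteins (23) and apoptosis regulators (29) had medians of 0.02, 0.03 and 0.00.

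Small RNA features were counted by their symbols. Of 238 small nucleolar and Cajal body RNAs, 70 (29.4%) lay wholly above paclitaxel and 11 (4.62%) wholly below, with a median difference of 0.10. Beside SNORA75, SNORA65 read 8.27, 8.07 and 8.01 under GM-453 and 7.12 and 7.24 under paclitaxel. Among 1046 microRNA loci the shares were 13.2% above and 10.3% below and the median difference was 0.03. MIR548T (difference -1.07, SE 0.15) and MIR548A2 (-1.30, SE 0.20) were among the lower ones, but another feature of MIR548T differed by only -0.19. RN5S479, a 5S ribosomal RNA pseudogene, was lower by 1.10 (SE 0.17). Olfactory receptor genes at the bottom of the signal range, OR2G2 (1.54, 1.52 and 1.80 against 3.01 and 2.71) and OR2M2 (2.28, 1.95 and 1.83 against 3.84 and 3.42), passed in the 8-array fit, while the 381 olfactory receptor features had a median difference of 0.03 at a median signal of 1.75.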

How the data were processed

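RNA of MDA-MB-231 cells was hybridised to Affymetrix HuGene 2.1 ST arrays. The authors deposited log2 signals of 53617 features on 12 arrays, computed from the scans by Affymetrix Expression Console, for which the sources used here give neither version nor summarization. Values were used as deposited, with no pseudocount or filter, and 0 columns were left unused. The platform annotation gave 23866 features 1 gene symbol, 1852 several and 27899 none, and 22560 of the first were matched by gene ID to RefSeq (GRCh38.p14), which changed 0 symbols. A gene with several features was read on the brightest over the 12 arrays.

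GM-453 (3 arrays) was set against paclitaxel (2 arrays) by lmFit and eBayes of limma 3.58.1 (R 4.3.3, two-sided), with the Benjamini-Hochberg adjustment made over every feature. The threshold was an adjusted p under 0.05 with a fold above 2. Other fits added the 3 GNE-140 arrays, or these and the 4 controls, to the spread. The comparison, the 38 gene lists and the 4 symbol families were chosen with earlier results of these data known, so lists are described by counts and medians and were not tested. The text names up to 12 genes per direction by smallest p, with a difference of at least 1, no overlap and a signal above the median, up to 4 per list, and 8 from an earlier 12-array fit. Genes beyond these were named after their values were seen, as were the motifs and the promoters searched, 250 bases before RefSeq starts. Alternatives covered the arrays in the fit, the prior variance (limma-trend, robust eBayes), array weights, quantile normalization or median centring, removal of dim features, the methods' t-test, the features used for adjustment or counted, the fold limit, the replicate number as a block, the feature per gene and each array left out. Those of the fit with GNE-140 were chosen after seeing the data. Precision is limited by how few arrays there are.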

Additional observations from a re-analysis of the deposited data

Results flagged for a closer look

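Among the 26 named genes, the spacing of the 4 control arrays was checked, since the other groups hold too few arrays, and 1 gene had a control far from the others, where chance alone flags about 1 in 20. SAMD9L read 4.31 in control replicate 4, against 5.01 to 5.13 in the other 3 controls, 3.68 to 3.91 under GM-453 and 4.81 to 4.94 under paclitaxel. That array does not enter the difference between the drugs.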

How the results depend on the processing

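In the 5-array fit 0 features passed, and 8 did with all 12 arrays in the fit, 27 with the 8 treated arrays and 12 with limma-trend (8, 31 and 15 with no fold limit). All other alternatives, including each array left out, the methods' t-test and the replicate number as a block, gave 0. The 79 features at an unadjusted p under 0.05 and a fold above 2 became 136 with the replicate block and 608 with a fold above 1.5. With features of several symbols or none also counted they were 390. They were 74 to 137 with 1 array left out, the highest without GM-453 replicate 3. With dim features left out they were 63, and by the methods' t-test 59. The 27 features of the 8-array fit became 44 with limma-trend, 21 with array weights, 0 with the replicate block and 0 to 12 with 1 array left out. The cause was not tested. The labels do not say whether replicate numbers pair the samples. The deviations of GM-453 and paclitaxel arrays from their group means correlated between -0.02 and 0.02. The 2 paclitaxel arrays deviate by equal and opposite amounts, so these correlations cannot settle the question. None of the 26 named genes changed sign in any alternative, but few alternatives could have reversed one. Their drug groups do not overlap, so leaving out an array could not reverse the sign. Alternatives that changed only the spread, the test or the adjustment kept the same difference. Of 458 values for the medians of 42 lists and families, 54 had the other sign, none of them in the mitotic, centrosome, interferon, antigen presentation, SRF or YAP lists. The number of arrays, 3 against 2, limits every call, and dim genes are the least certain.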

Other observations

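Some groups not described above lay mostly on one side, without a gene past the threshold. Of 25 ATF4 targets and amino acid response genes, 11 (44.0%) lay wholly above paclitaxel and 2 (8.0%) wholly below, with a median difference of 0.16, and the transporter gene SLC7A5 was higher by 0.38 (SE 0.14). Of 21 respiratory chain genes, 8 (38.1%) lay wholly below and 0 above, with a median of -0.13. The shares of all genes are 13.9% above and 16.3% below. Of 31 NF-κB genes the median was 0.00, with TNFAIP3, a feedback inhibitor of the pathway, higher by 0.69 (SE 0.16). PTGS2, which encodes cyclooxygenase 2, read 4.38, 4.81 and 4.29 under GM-453 and 3.63 and 3.86 under paclitaxel, and every control lay above both, at 4.88 to 6.70. Hexokinase 2 (HK2) was higher by 0.72 (SE 0.15) in a glycolysis list whose median was 0.02. The 35 replication-dependent histone genes had a median of -0.16, with H1-4 higher by 0.53 and H3C13 lower by 0.84.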
